A study of Homo sapiens with 2 samples.

Results

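Mitochondrial ribosomal proteins are the protein subunits of the ribosome inside mitochondria. Most of their nuclear genes carry symbols that start with MRPL, named for the large subunit, or MRPS, named for the small subunit. Members were chosen by symbol alone, as the genes whose symbol starts with MRPL or MRPS followed by a digit in any of 5 tables of splicing events. This gave 72 genes of 12254, with 608 of 159490 events. Of the members, 42 carried an MRPL symbol and 30 an MRPS symbol.

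The tables come from sequencing of poly(A) RNA of the human kidney line HEK293T. Control cells were left without treatment, and the other cells received the diuretic amiloride at 300 µg/mL for 6 h. Each condition had 1 library. The tables are the output of rMATS for these 2 libraries, a program that lists places in a transcript where RNA can be joined in alternative ways and counts the reads for each form. The columns of reads and inclusion levels number the libraries without naming the condition, so they were not used here. The report therefore describes which exons, splice sites and introns of these genes are listed, with their structure and their predicted effect on the protein, and gives no inclusion level and no difference between control and amiloride cells. That an exon is listed says nothing of how often it was skipped.

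The mitochondrial ribosome makes the few proteins that the mitochondrial genome encodes, which are core subunits of the respiratory chain and the ATP synthase. Its RNA comes from the mitochondrial genome, while every one of its proteins is made in the cytosol and imported. Some of these proteins have counterparts in bacterial ribosomes, and others are found only in mitochondria. The symbols do not always give the place: the products of MRPS30 and MRPS18A sit in the large subunit. For a skipped exon the reading frame matters, because an exon whose coding length is not a multiple of 3 bases shifts the frame when it is left out, and a stop codon well before the last exon junction commonly sends an mRNA to nonsense-mediated decay.

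Short exons and unusual splice sites are shown as extremes, and most listed exons are longer and have the usual sites. The 3 shortest coding exons of the canonical transcripts, 1 per gene, are given first, with the exon in capitals between 20 bases of the intron before it and 6 bases of the intron after it. All sequences are on GRCh37, 5' to 3' on the strand of the gene.
MRPL33 exon 2, chr2:27995521-27995565, plus strand: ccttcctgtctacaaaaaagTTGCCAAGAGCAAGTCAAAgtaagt
MRPS9 exon 4, chr2:105687897-105687953, plus strand: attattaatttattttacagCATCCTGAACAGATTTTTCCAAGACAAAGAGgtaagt
MRPS18A exon 2, chr6:43648820-43648877, minus strand: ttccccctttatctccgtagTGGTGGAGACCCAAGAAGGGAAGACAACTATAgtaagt
The exons have 19, 31 and 32 bases, and none of these lengths is a multiple of 3. All 3 are followed by the same 6 intron bases at the 5' splice site (5'SS).

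In 4 listed exons the intron starts with GC in place of GT. These exons were chosen after their values were seen, and the GC is in capitals after the last 3 bases of the exon.
MRPL2 exon 3, chr6:43024039-43024047, minus strand: tagGCaagt
MRPL24 exon 4, chr1:156707817-156707825, minus strand: cagGCaagc
MRPL11 exon outside the canonical transcript, chr11:66204281-66204289, minus strand: gagGCaagt
MRPS27 exon outside the canonical transcript, chr5:71537468-71537476, minus strand: cagGCaagt
All 4 have AG at their 3' splice site (3'SS). In each the exon ends in ag and the GC is followed by aag.

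Of 78 protein-coding genes that meet the symbol rule in GENCODE 44, 70 were listed in at least 1 table. The 2 remaining members are the pseudogenes MRPL45P2 and MRPS31P5. The 8 genes not listed were MRPL32, MRPL34, MRPL36, MRPL41, MRPL50, MRPL54, MRPL57 and MRPL58. Their canonical transcripts, the ones Ensembl marks as representative, have 2 exons in MRPL34, MRPL36, MRPL41, MRPL50 and MRPL57, and a gene of 2 exons has no internal exon that could be skipped. MRPL32 and MRPL54 have 3 exons. MRPL58 has 6 exons and is listed under its older symbol ICT1, which the rule does not take.

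Skipped exons made up 404 of the members' events (66.4%), against 71.1% of all events. Mutually exclusive exons followed with 163 events (26.8%, against 25%). The members further had 22 events at alternative 5'SS (3.62%, against 1.64%), 11 at alternative 3'SS (1.81%, against 1.8%) and 8 retained introns (1.32%, against 0.424%). Cytosolic ribosomal proteins, the subunits of the ribosome outside mitochondria, had 532 events in 77 genes. Of these, 66.0% were skipped exons, 3.01% alternative 5'SS and 1.13% retained introns.

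**Figure D1:**
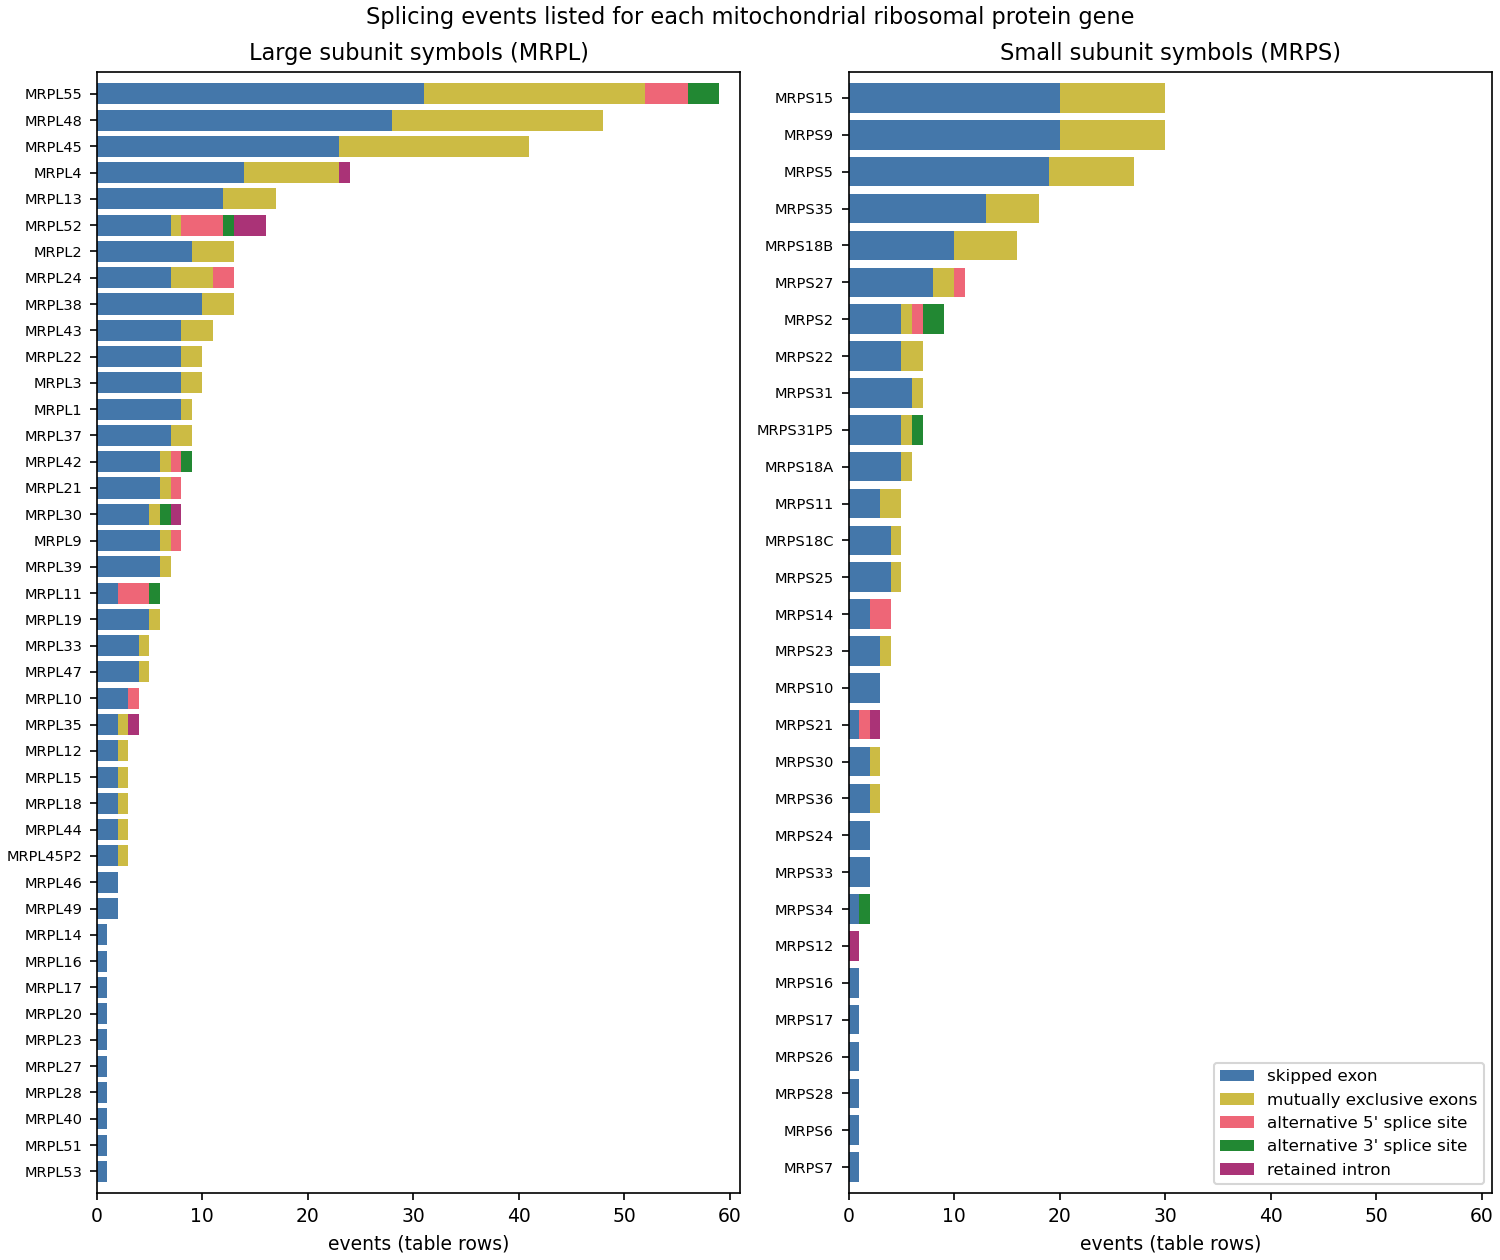
Number of events listed for each member gene, stacked by event type, for MRPL symbols (left) and MRPS symbols (right). MRPL55 has the longest bar with 59 events, and MRPS15 and MRPS9 lead the small subunit symbols with 30 each.

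The events were spread unevenly over the genes. MRPL55, a protein of the large subunit, had 59 events in all, MRPL48 had 48 and MRPL45 had 41. In the small subunit, MRPS9 and MRPS15 had 30 each and MRPS5 had 27; MRPS15 was named after its values were seen. The 5 genes with the most skipped-exon events held 122 of the 404 (30.2%). At the other end, 21 genes had exactly 1 skipped exon.

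The 404 skipped-exon events concerned 213 distinct exons in 71 genes, where an exon is distinct by its chromosome, strand, start and end. The median was 3 skipped exons per gene. Events of 1 exon differ in the exons that flank it, and 114 exons (53.5%) had exactly 1 event, against 60% of the 67154 skipped exons of all genes. The exon with the most events among the members had 8. Both splice sites of all 213 exons were annotated in GENCODE, against 99.4% for all genes. AG and GT flanked 209 of them (98.1%, against 98.9%).

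The canonical transcripts of the 69 protein-coding members with a skipped exon hold 250 internal exons, and 187 of them (74.8%, 95% interval 69.1 to 79.8%) were listed as skipped. The intervals given with shares are Wilson intervals and cover counting error only. For all genes with a skipped exon the share was 49.0% of 125381 internal exons, and for cytosolic ribosomal proteins it was 73.7% of 274 (68.2 to 78.6%). Only genes with a skipped exon enter these shares, which raises them in genes with few internal exons, and 13 of the 69 members (18.8%) had a single one, against 3.78% of all genes. Among genes with 4 to 9 internal exons, a range chosen after the values were seen, the share was 74.9% of 167 in the members (67.8 to 80.8%), 60.8% in all genes and 74.7% in cytosolic ribosomal proteins (67.9 to 80.5%). The distance from all genes was thus smaller among genes of similar exon number. A gene with more reads may offer more junctions to list, which was not tested, and the level of each gene was not analysed here. Within the members, 72.0% of 150 exons were listed for MRPL symbols and 79.0% of 100 for MRPS symbols.

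In 32 of these 69 genes (46.4%, interval 35.1 to 58.0%), every internal exon was listed, against 16.1% of all genes. For cytosolic ribosomal proteins the share was 33.8% (24.2 to 44.9%), and this interval overlaps that of the members. Among genes with 4 to 9 internal exons, every one was listed in 9 of 30 members (interval 16.7 to 47.9%). There the shares were 16% of all genes and 27% of cytosolic ribosomal proteins (15.4 to 43.0%). MRPS9 had the most of these, with all 9 internal exons, followed by MRPL45, MRPL48 and MRPS35 with all 6. MRPL28 listed 1 of its 4 internal exons.

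Exon 2 was listed in 56 of 69 member genes (81.2%, interval 70.4 to 88.6%), against 58.2% of all genes and 66.2% of cytosolic ribosomal proteins (55.1 to 75.8%). The last internal exon was listed in 45 of 69 (65.2%, interval 53.4 to 75.4%), against 52.7% and 70.1% (59.2 to 79.2%). With a single internal exon both are the same exon, and requiring a skipped exon nearly fixes that it is listed. Among genes with 4 to 9 internal exons, exon 2 was listed in 22 of 30 members (73.3%, interval 55.6 to 85.8%), against 60.8% of all genes. There the last internal exon was listed in 16 of 30 (53.3%, interval 36.1 to 69.8%), against 54.1%. Both intervals hold the share of all genes. Over all 69 genes, the last internal exon was listed in 56.1% of MRPL genes (interval 41.0 to 70.1%) and 78.6% of MRPS genes (60.5 to 89.8%).

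**Figure D2:**
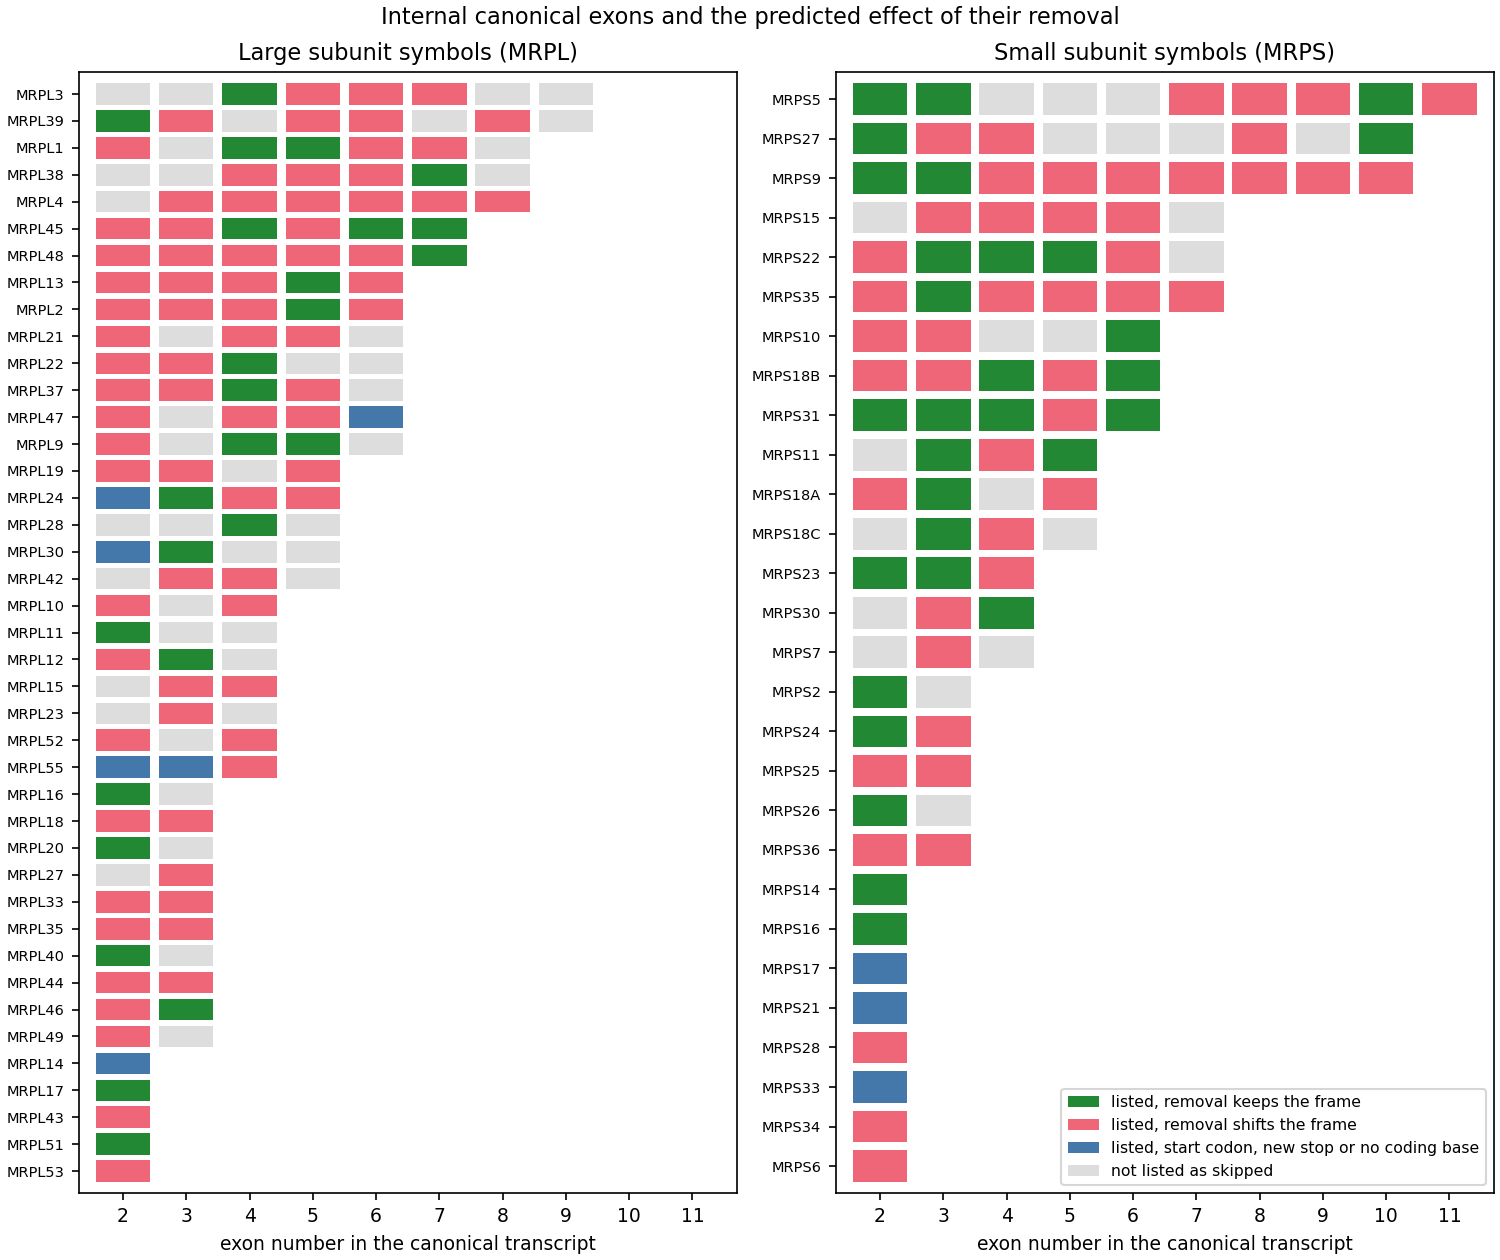
Internal exons of the canonical transcript of each member gene by exon number, for MRPL symbols (left) and MRPS symbols (right); colour gives whether the exon was listed as skipped and what its removal is predicted to do to the reading frame. In MRPL4 all 6 listed exons shift the frame, whereas in MRPS31 4 of 5 keep it.

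Listed exons of the members were slightly shorter than those of all genes. The median was 107 bases (quartiles 73 and 146), against 114 bases (83 and 154) over all skipped exons, and 14 exons (6.57%) were under 50 bases, against 5.19%. Those of cytosolic ribosomal proteins had a median of 108 bases, close to that of the members, and 5.58% were under 50 bases. Internal canonical exons of the members that were not listed had a median of 124 bases, with 107 for the listed ones. The introns before listed exons had a median of 1798 bases, against 1296 before exons not listed. After them the medians were 1922 and 1387 bases. The 95% intervals of these medians overlap between listed exons and exons not listed, for exon length and for both introns. Over all genes, introns before listed exons also had the higher median, with 1783 bases against 1399. The introns of cytosolic ribosomal proteins were far shorter, with a median of 522.5 bases before listed exons.

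The extremes of length were in both subunits. After MRPL33 exon 2 with 19 bases, the shortest was an exon of MRPL42 outside its canonical transcript with 20 bases (chr12:93864262-93864281). Then came the exons of MRPS9 and MRPS18A shown above and exon 3 of MRPL48 with 38 bases, a length that an exon of MRPL55 shares. Exon 2 of MRPL44, whose product resembles ribonuclease III, was the longest with 469 bases (chr2:224824251-224824719). An exon of MRPS2 outside the canonical transcript had 329 bases, exon 2 of MRPS31 had 288, an exon of the pseudogene MRPS31P5 had 276 and exon 2 of MRPS16 had 261.

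**Figure D3:**
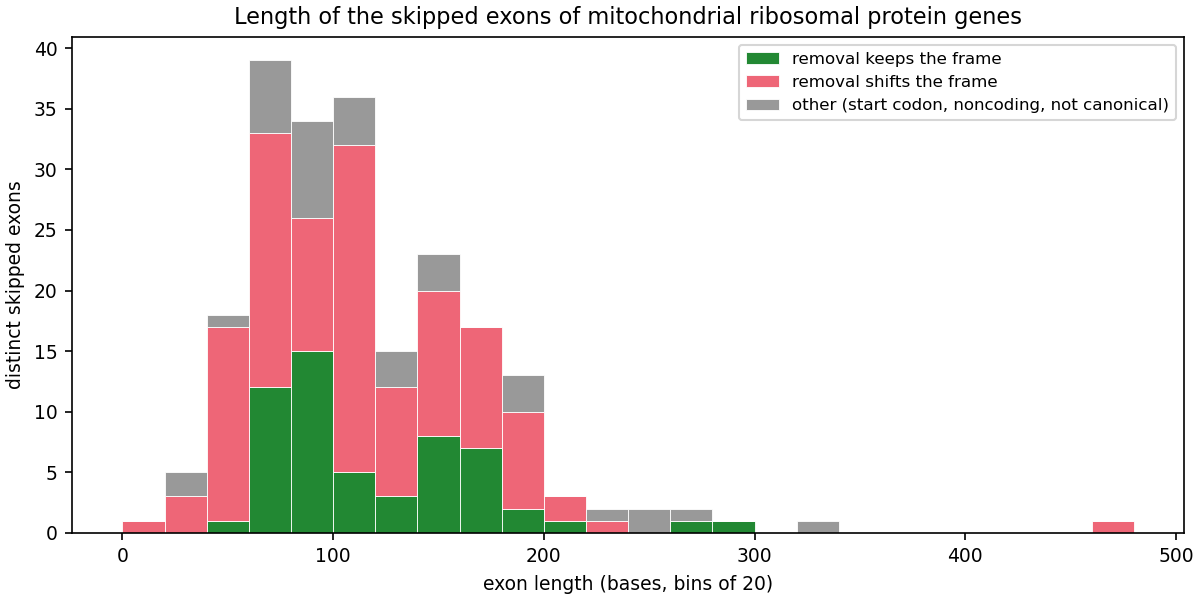
Distinct skipped exons of the member genes by length in bins of 20 bases, coloured by the predicted effect of removal. The lengths run from 19 to 469 bases with a median of 107, and frame-keeping exons lie among the frame-shifting ones.

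Of the 213 exons, 68 (31.9%, interval 26.0 to 38.5%) had a length that is a multiple of 3 bases. The share was 38.8% over all skipped exons and 37.7% over those of cytosolic ribosomal proteins (31.5 to 44.3%). The members' interval ends just below the share of all genes. MRPL and MRPS symbols differed, with 34 of 125 exons (27.2%, interval 20.2 to 35.6%) and 34 of 88 (38.6%, interval 29.1 to 49.1%), and these intervals overlap. Exons of 1 gene are not independent, and no test was made across exons.

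Internal coding exons of the canonical transcripts allowed a comparison with exons not listed. Among the members, 57 of 179 listed exons (31.8%, interval 25.5 to 39.0%) and 27 of 61 exons not listed (44.3%, interval 32.5 to 56.7%) had a multiple of 3. In MRPL genes the shares were 26.2% and 47.5%, and in MRPS genes 39.5% and 38.1%. The intervals overlapped in both, with 18.7 to 35.5% and 32.9 to 62.5% in MRPL genes, and 29.2 to 50.7% and 20.8 to 59.1% in MRPS genes. Over all genes the shares were 39.3% and 41.2%. In cytosolic ribosomal proteins the listed exons had the higher share, with 39.9% against 32.7%, and the intervals overlapped there too.

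The effect of leaving out 1 exon was predicted on the canonical transcript, from the annotation and not from any protein. Removal shifted the frame for 122 exons and kept it for 56, and for 1 exon with a multiple of 3 it made a new stop codon. The start codon lay in 7 exons, 1 exon held no coding base, 5 were on the canonical transcripts of pseudogenes, which have no coding sequence, and 21 were not exons of a canonical transcript. These 21 include 2 more of the 7 pseudogene exons. Thus 56 of 179 internal coding exons (31.3%, interval 24.9 to 38.4%) kept the frame, against 38.9% over all genes and 40% in cytosolic ribosomal proteins (33.1 to 47.3%). In MRPL genes this was 26 of 103 (25.2%, interval 17.8 to 34.4%) and in MRPS genes 30 of 76 (39.5%, interval 29.2 to 50.7%).

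The exon with a new stop was exon 6 of MRPL47, with 96 bases. When exon 5 is joined to exon 7, a stop codon forms across the new junction; below are the last 12 bases of exon 5 and the first 12 of exon 7, with the stop in capitals. This exon was chosen after its values were seen.
MRPL47 exon 5 to exon 7, chr3:179311553-179311564 and chr3:179306772-179306783, minus strand: aagaatcatcTGActggaacgtga
The predicted product has 177 residues in place of 250.

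Among frame-keeping exons, removal took out a median of 33.5 residues (quartiles 27 and 53), or 13.9% of the protein. The smallest loss was 17 residues with exon 4 of MRPL9. The largest by number was 96 residues with exon 2 of MRPS31. By share it was exon 2 of MRPS16, which holds 87 of 137 residues (63.5%). MRPS16 has a counterpart in bacterial ribosomes, and its gene had no other listed exon.

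In the large subunit, several frame-keeping exons belonged to proteins with bacterial counterparts. MRPL1, part of the mobile L1 stalk, had exons 4 and 5, which hold 28 and 24 residues. Exon 2 of MRPL11, from the base of the other stalk, holds 32 residues, and exon 3 of MRPL12, the protein of that stalk which meets translation factors, holds 28. MRPL2 and MRPL3, near the site of peptide bond formation, had exon 5 with 37 residues and exon 4 with 33. For MRPL22, which lines the exit tunnel, exon 4 holds 22 residues.

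Further frame-keeping exons with bacterial counterparts were exon 5 of MRPL13 with 29 residues, exon 2 of MRPL16 with 22, exon 2 of MRPL17 with 23 and exon 2 of MRPL20 with 37. MRPL24 exon 3 holds 32 residues, MRPL28 exon 4 holds 45 and MRPL30 exon 3 holds 27. These exons are short parts of their proteins, from 8.76% in MRPL16 to 24.8% in MRPL20.

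Some other frame-keeping exons of MRPL genes were in proteins found in mitochondria and not in bacteria. Exon 4 of MRPL37 holds 62 residues, exon 7 of MRPL38 holds 53, exon 2 of MRPL39 holds 69 and exon 2 of MRPL40 holds 28. MRPL45, which anchors the ribosome at the inner membrane near the exit tunnel, had 3 such exons, with 33 residues in exon 4, 50 in exon 6 and 58 in exon 7. Exon 3 of MRPL46 holds 58 residues, exon 7 of MRPL48 holds 30 and exon 2 of MRPL51 holds 37.

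For the 122 frame-shifting exons, translation was predicted to reach a median of 44.4% of the full protein length before the new stop (quartiles 27.7 and 61.6%), from 3.77 to 94.0%. Residues counted before a new stop, here and below, include those read in the shifted frame after the removed exon. The new stop lay over 50 bases before the last exon junction for 85 exons (69.7%, interval 61.0 to 77.1%), against 86.1% over all genes and 54.6% in cytosolic ribosomal proteins (45.2 to 63.7%). A stop in this position is the common rule for nonsense-mediated decay, which was not measured. The other 37 stops lay closer to that junction or past it. For the 27 frame-shifting exons that are the last internal exon no stop can lie before the last junction, since the frame changes only past it. Of the other 95 exons, 85 had a stop over 50 bases before it (89.5%, interval 81.7 to 94.2%), against 94.9% over all genes and 83.1% in cytosolic ribosomal proteins (72.7 to 90.1%) on the same basis.

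**Figure D4:**
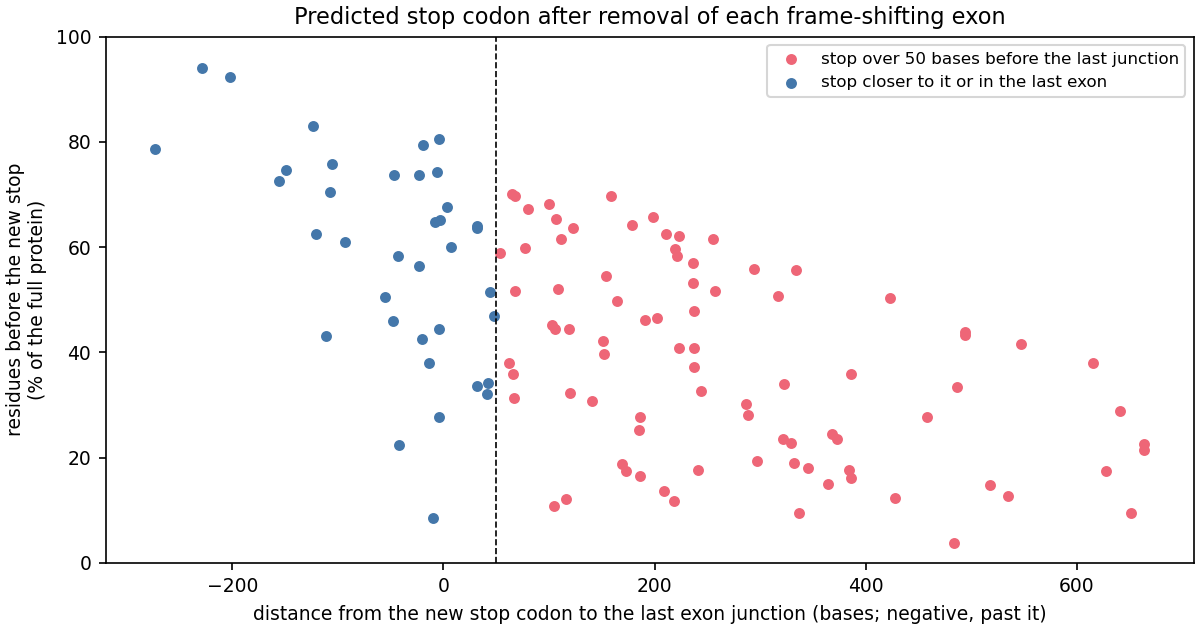
Predicted stop codon after removal of each of the 122 frame-shifting exons. The horizontal axis gives the distance in bases from the stop to the last exon junction. The vertical axis gives the residues made before the stop, shifted ones included, as a share of the full length. Points right of the dashed line at 50 bases are the 85 exons whose new stop lies over 50 bases before the last junction.

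The genes with the most distinct skipped exons differed in these effects. Of the 10 taken, MRPL1 came last with 5 exons, a number that other members shared, and was taken by symbol order. In MRPL4, a protein of the exit tunnel, all 6 listed exons (3 to 8) shifted the frame. Without them translation would end after 116 residues (exon 3) to 287 (exon 8) of 311. MRPL48, found in mitochondria and not in bacteria, had all 6 internal exons listed in 28 events, and 5 shifted the frame. Leaving out its exon 2 would end translation after 8 of 212 residues, the smallest share among the members.

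MRPL45 had 23 skipped-exon events over its 6 internal exons. Exons 2, 3 and 5 shifted the frame, whereas the 3 others kept it. Without exon 2, 3 or 5, translation would end after 45, 85 or 155 residues, with 306 in the full protein. Exon 4 of MRPL45 and exon 4 of its pseudogene MRPL45P2, both listed as skipped, are identical over all 99 bases on GRCh37. Exon 3 of MRPL45P2, also listed, has the same base as exon 3 of MRPL45 at 117 of 118 aligned positions (99.2%) and holds further bases. Events of these 2 exons are uncertain in both genes, because their own sequence hardly separates the copies. The exons next to them were not compared. In the pseudogene MRPS31P5, the exon of 276 bases shared 247 of 276 aligned bases with exon 2 of MRPS31 (89.5%), and its exon 3 shared 126 of 141 with exon 3 (89.4%). Its 3 other listed exons matched no listed exon of MRPS31 well, with 40% to 60.4% of aligned bases the same. These comparisons were chosen after the values were seen.

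MRPL39 had 5 canonical exons listed and 1 other exon of 89 bases. Its exon 2 kept the frame and 4 shifted it. Without 1 of the 4, translation would end after 113 (exon 3) to 272 residues (exon 8), with 338 in the full protein. For MRPL1 the exons listed were 2, 4, 5, 6 and 7. For its 3 frame-shifting exons, translation would end after 31, 207 and 228 residues, with 325 in the full protein.

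MRPL55 stood apart because 4 of its 6 listed exons lie before the coding sequence or around its start codon. These are exon 2, which has no coding base, the exon of 38 bases and the forms of exon 3 with 84 and 87 bases, of which the shorter is canonical and holds the start codon. Exon 4 lies in the coding sequence, and its removal would end translation after 11 residues, with 128 in the full protein. An exon of 108 bases lies outside the canonical transcript, as do those of 38 and 87 bases. Exon 2 and the exon of 38 bases had 8 events each, the most of any member exon. The 2 forms of exon 3 differ by an alternative 3'SS described with the other event types.

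In the small subunit, MRPS9 had the most distinct skipped exons of all members, with 9. Exons 2 and 3 kept the frame and hold 60 and 21 residues. The 7 others shifted it. For these, translation would end after 150 (exon 4) to 315 residues (exon 10), with 396 in the full protein. MRPS9 and MRPS5 both have counterparts in bacterial ribosomes. MRPS5 had 7 exons listed, and exons 2, 3 and 10, which hold 27, 46 and 21 residues, kept the frame. Its exons 7, 8, 9 and 11 shifted the frame. For these, translation would end after 251, 269, 276 and 317 residues, with 430 in the full protein.

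MRPS27 and MRPS35 are found in mitochondria and not in bacteria. In MRPS27, exons 2 and 10 kept the frame and hold 26 and 56 residues, while exons 3, 4 and 8 shifted it. For the shifting exons, translation would end after 89, 93 and 214 residues, with 414 in the full protein. Its remaining listed exon has 42 bases and the GC 5'SS printed above. MRPS35 had exons 2 to 7 listed. Only exon 3 of these kept the frame, with 56 residues of 323. In MRPS31, chosen here after its values were seen apart from exon 2, exons 2, 3, 4 and 6 kept the frame and exon 5 shifted it.

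The start codon lay in a listed exon of MRPL14, MRPL24, MRPL30, MRPL55, MRPS17, MRPS21 and MRPS33, of which MRPL14, MRPL24, MRPS17 and MRPS33 were named after their values were seen. In MRPL14, MRPS17, MRPS21 and MRPS33 this was the single internal exon. What would be translated without that exon was not predicted.

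An event joins the upstream flanking exon to the downstream one. In 346 events of the members, the exon and both junction ends lay on the canonical transcript. Exactly 1 canonical exon lay between the flanking exons in 160 of them (46.2%, against 46.3% over all genes), 2 in 99 (28.6%, against 25.3%) and 3 in 42 (12.1%, against 12.7%). The widest event spanned 8 canonical exons. In the 186 events (53.8%) that span more than 1, the skipping form lacks neighbouring exons too. Where the whole stretch is coding, its length was a multiple of 3 in 47 of 148 events with 1 exon (31.8%, interval 24.8 to 39.6%). With more exons this was 56 of 177 (31.6%, interval 25.2 to 38.8%), and the intervals overlap. These shares rest on length alone and take no account of new stop codons. Over all genes the shares were 40.2% and 40.6%.

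The skipping junction was itself annotated for 77 of the 404 events (19.1%, interval 15.5 to 23.2%), against 18% over all genes and 14.0% in cytosolic ribosomal proteins (10.7 to 18%). These events came from 37 genes. MRPL55 had 9, MRPL48 had 7 and MRPL52 had 6. In MRPS9 and MRPS15 no skipping junction was annotated, although each had 20 skipped-exon events. Both inclusion junctions were annotated for 233 events (57.7%, against 57.0%). The effective length of the inclusion form exceeded that of the skipping form by the exon's length in all 404 events, so reads on the exon body counted toward inclusion.

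Splice sites were scored by how closely they follow the bases at annotated sites, in log2 units, with 9 bases taken for a 5'SS and 23 for a 3'SS. A higher score is closer to the usual site. The members had a median 5'SS score of 7.45 (quartiles 5.84 and 9.30; 95% interval of the median 7.15 to 8.21), against 8.07 over all skipped exons and 8.63 in cytosolic ribosomal proteins (8.21 to 8.89). At the 3'SS the median was 9.83 (7.35 and 11.5; interval 9.24 to 10.2), against 9.21 and 8.93. For the 5'SS, MRPL genes had a median of 7.18 (interval 6.67 to 7.98) and MRPS genes of 8.16 (7.40 to 8.82), and these intervals overlap.

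**Figure D5:**
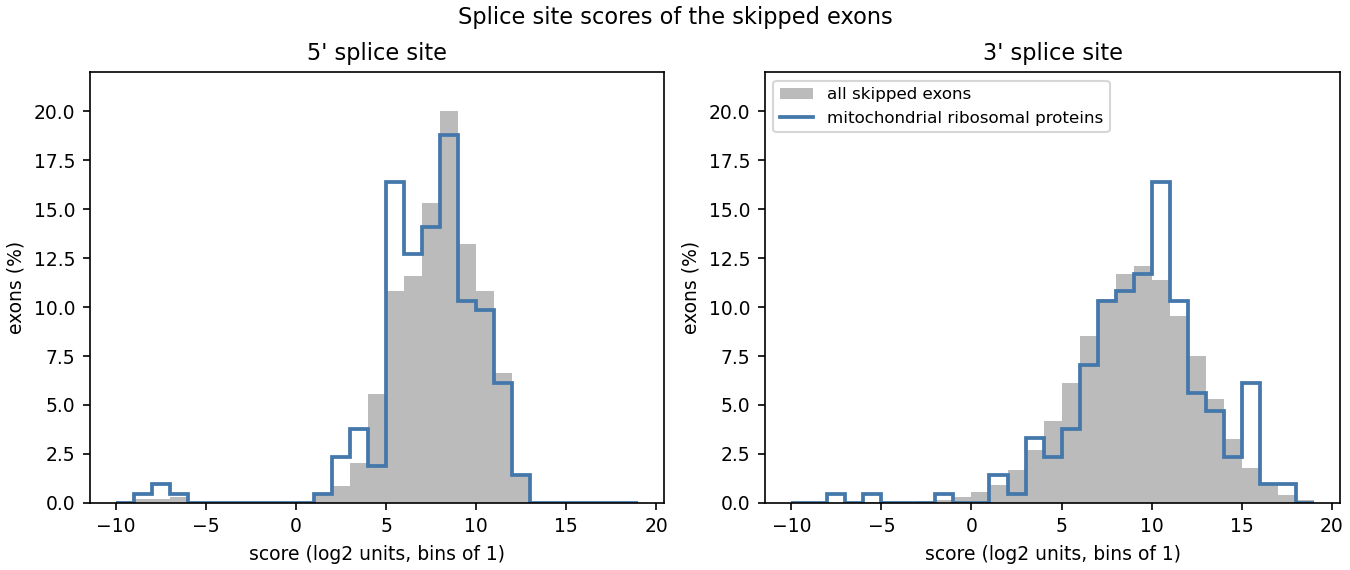
Share of skipped exons by splice site score in bins of 1 log2 unit, at the 5' site (left) and the 3' site (right), for the members (line) and all genes (grey). The members' median is 7.45 against 8.07 at the 5' site and 9.83 against 9.21 at the 3' site, and the group at the far left of the 5' plot holds the GC sites.

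The 4 exons with GC had the lowest 5'SS scores, from -8.18 in MRPL24 to -6.55 in MRPS27, as the score was made from GT sites. At the 3'SS, 3 exons had scores below 0, named here after their values were seen. They are shown with the highest-scoring site, exon 3 of MRPS31, and the AG at the end of the intron is in capitals.
MRPS6 exon 2, chr21:35497621-35497643, plus strand: aaaaacacaaacaaaaacAGcca
MRPL12 exon 2, chr17:79671254-79671276, plus strand: taattgggggtgggggctAGgcg
MRPS18C exon 4, chr4:84380873-84380895, plus strand: cacataaaactccaaaacAGctt
MRPS31 exon 3, chr13:41333240-41333262, minus strand: tttttcattttctttttcAGaat
Their scores were -7.47, -5.66, -1.25 and 17.1. The first and the third are rich in a and c, the MRPL12 site is rich in g, and the MRPS31 site is an almost unbroken run of pyrimidines, mostly t. All 3 low-scoring exons shift the frame.

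Alternative 3'SS gave 8 distinct stretches of added sequence in the members, from 3 to 1581 bases with a median of 14.5. In 3 of them the sites lay 3 bases apart, in MRPL42, MRPL52 and MRPL55. Over all genes, 575 of 2432 such stretches (23.6%) had 3 bases. Each pair of sites is shown with both AG-ending triplets in capitals.
MRPL42 chr12:93862950-93862973, plus strand: tctttatctcttCAGCAGgagtag
MRPL52 chr14:23299244-23299267, plus strand: gctctgttctccCAGCAGgtgtcc
MRPL55 chr1:228296014-228296037, minus strand: tcattctctgccTAGCAGgttgca
In MRPL52 the 3 bases lie within the coding span, and in MRPL42 and MRPL55 they lie before it. MRPS2 had a stretch of 145 bases within the coding span. In MRPL30 the longer form adds 1581 bases (chr2:99812036-99813616), which cross the end of the coding span.

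Alternative 5'SS gave 16 distinct stretches in 12 genes, from 8 to 551 bases with a median of 88.5, against 62 bases over all genes. A multiple of 3 was found in 4 of 16, a small count given without an interval, against 43.8% over all genes. MRPL52 had stretches of 8, 162 and 170 bases within the coding span. In MRPL55 the added 112 bases lie before the coding span, whereas the 85 bases of MRPL42 and the 203 bases of MRPS2 lie within it. The longest stretch, 551 bases in MRPS21, crosses the start of the coding span. MRPL11, named after its values were seen, had 3 stretches of 72, 78 and 150 bases, each a multiple of 3.

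The 8 retained introns were in 6 genes, with a median of 124 bases, against 283 bases over all genes (quartiles 140 and 631). MRPL52 had 3, with 101, 109 and 112 bases, which combine its alternative 5'SS and 3'SS (chr14:23299150-23299261 for the longest) and lie within the coding span. None of these lengths is a multiple of 3. These 3 are overlapping forms of the same intron, so the median counts it 3 times. The introns of the other genes lie on both sides of 283 bases, from 104 to 1812. The median therefore does not show that retained introns of the members are shorter. In MRPS12, part of the decoding centre of the small subunit, the retained intron of 104 bases (chr19:39421812-39421915) lies before the coding span and is the gene's single event. MRPL4 had an intron of 136 bases and MRPS21 of 436, both before the coding span. MRPL35 had an intron of 1812 bases, and MRPL30 one of 1397 bases, which ends where its longer 3'SS stretch ends. MRPL52 was the member with events in all 5 tables, and MRPL30, MRPL42, MRPL55 and MRPS2 had events in 4.

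Mutually exclusive exons were listed in 163 events of 45 member genes, with 21 events in MRPL55, 20 in MRPL48 and 18 in MRPL45. Both exons of the pair were also in the skipped-exon table in 162 of these events (99.4%, against 98.3% over all genes). The lengths of the pair differed by a multiple of 3 in 65 events (39.9%, interval 32.7 to 47.5%), against 35.6%. No pair had equal lengths, against 378 of 39869 events over all genes.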

How the data were processed

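Polyadenylated RNA of HEK293T cells was sequenced from 1 control library and 1 library treated with 300 µg/mL of amiloride for 6 h. The submitters' processing notes name STAR 2.5.1 and the hg19/GRCh37 build; the version and annotation of rMATS are not given in the sources used here. The authors deposited 5 rMATS tables, of which only symbols, positions and effective lengths of the forms were used. The depth per library is not given by these columns. The 30 columns of reads and inclusion levels number the libraries without naming the condition and were not used. The tables also hold the authors' own comparison (p-value, FDR and inclusion level difference), which was not used.

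Positions were matched to GRCh37 and GENCODE 44 lifted to that build. Symbols absent from it were matched through RefSeq synonyms that name 1 gene. Exon numbers, frames and stops refer to the Ensembl canonical transcript. A splice site score adds up, over its bases, the log2 of how often each base occurs relative to 1 in 4, with a pseudocount of 0.5, from 300873 5'SS with GT and 300290 3'SS with AG. Pseudogene exons were aligned with gaps to the listed exons of the parent gene. The scoring and frame steps were tested on simulated data. Shares carry 95% Wilson intervals and medians intervals from order statistics. With 1 library per condition and no named read columns, no test was made.

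Named were the genes with events in at least 4 tables, the 10 with most skipped exons, those with a retained intron, the 5 shortest and 5 longest exons (1 per gene) and the first 25 frame-keeping exons by symbol; other names are said to be chosen after their values were seen. The members and lists were chosen with earlier results of these data known. Alternatives changed the members, the unit counted, the exons and genes kept, the annotation and the transcript. The software was Python 3.11.15 with matplotlib 3.10.9, numpy 2.4.6, statsmodels 0.14.6, pysam 0.24.0, pandas 2.3.3 and scipy 1.17.1.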

Additional observations from a re-analysis of the deposited data

How the results depend on the processing

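The alternatives gave 38 values for 12 results, and 32 stayed within the interval of the reported share or median or within 1.5 times the reported count. Some of the 32 could not move. Keeping only exons with both splice sites annotated kept all 213 exons, and leaving out pseudogenes kept the same 179 internal coding exons. The number of skipped exons was 404 when events were counted in place of distinct exons and 114 when exons with exactly 1 event were kept, as follows from how these are counted. The share of annotated skipping junctions was 13.1% with protein-coding transcripts only, in place of 19.1%. Limits on the number of internal exons were chosen after seeing the data. Every internal exon was listed in 33.9% of members with at least 2 internal exons and 30% of those with 4 to 9, in place of 46.4%, and the last one in 53.3% of the latter, in place of 65.2%. The share of exons with a multiple of 3 ran from 28.5% to 33.3%, and the share of frame-keeping exons from 30.7% to 31.7%. The alternative for inclusion levels, a minimum of 20 reads in each library, was not run, because no read column names its library. No paired analysis was possible because the series holds only 1 library of either kind. Which exons are listed may depend on the reads of each gene, which was not tested, and that depth was not analysed here.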

Other observations

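Other proteins of mitochondrial translation were taken from 2 lists. Of 7 mitoribosomal proteins under other symbols, 4 had skipped exons: DAP3 with 11, PTCD3 with 17, ICT1 with 3 and AURKAIP1 with 1. DAP3, a GTP-binding protein of the small subunit, had 81 skipped-exon events over its 11 exons, more than any gene with an MRPL or MRPS symbol, and 6 of its exons kept the frame while 3 shifted it. In PTCD3, a pentatricopeptide repeat protein of the small subunit, 14 exons shifted the frame and 3 kept it. ICT1, a peptide release protein built into the large subunit, had 1 exon that kept the frame and 2 that shifted it. On this list, 10 of 29 internal coding exons kept the frame (34.5%, interval 19.9 to 52.7%).

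Of 30 assembly and translation factors, 28 had skipped exons, 166 in all. LRPPRC, which binds mitochondrial mRNAs together with SLIRP, had 20 exons, of which 5 kept the frame and 15 shifted it. DHX30, an RNA helicase, had 19 and the elongation factor GFM2, which acts in ribosome recycling, had 17. Frame-keeping exons made up 48 of 144 (33.3%, interval 26.2 to 41.4%). The skipping junction was annotated for 12.9% of these factors' 340 events (interval 9.78 to 16.9%), against 19.1% for the MRPL and MRPS genes (15.5 to 23.2%), and these intervals overlap. For the mitoribosomal proteins under other symbols it was 8 of 124 events (6.45%, interval 3.31 to 12.2%), and 81 of these events are from DAP3. The genes of both lists that are named here were chosen after their values were seen.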
